A study of Arabidopsis thaliana with 19 samples.

Results

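The Arabidopsis ATH1 array carries 69 probe sets that are annotated to a single gene of the plastid genome, out of 22810 probe sets in all. They were chosen by the locus tag of the gene, without use of the signals, and stand for 69 of the 84 protein-coding plastid genes in the RefSeq gene table. By the prefix of the gene symbol they fall into photosystem I (psa, 5), photosystem II (psb, 15), the cytochrome b6f complex (pet, 6), the ATP synthase (atp, 6), the NDH complex (ndh, 10), the plastid ribosome (rps and rpl, 15), the plastid RNA polymerase (rpo, 4) and 8 others: matK, ycf3, rbcL, accD, ycf4, cemA, clpP and ccsA. Their signals were described on all 19 arrays, and the classes were compared within each array.

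The plastid genome is transcribed inside the organelle, by a polymerase of bacterial type whose core subunits are the rpo genes and by nuclear-encoded polymerases of phage type. Many plastid genes lie in clusters that are transcribed together and then cut and processed, and plastid mRNAs, unlike nuclear ones, carry no stable poly(A) tail. In a green leaf the photosystem genes and rbcL are known for very abundant transcripts. Their products form complexes with nuclear-encoded subunits that are imported into the plastid.

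Shoots of Arabidopsis thaliana seedlings were measured at 14 days, after cotyledons and hypocotyls had been cut away. All seedlings had grown at 20 °C in short days of 10 h light and 14 h dark. The series holds 3 experiments. In the first, 2 arrays of seedlings overexpressing MYB29 (MYB29_OE) and 2 of seedlings overexpressing MYB76 (MYB76_OE) stand against 3 arrays of wild type (WT_MYB29_MYB76). The second sets 2 arrays of ATR1 overexpressors (ATR1_OE) and 2 of MYB51 overexpressors (MYB51_OE) against 2 of wild type (WT_ATR1_MYB51). The third sets 2 arrays of 35S:ATR1_like_miR (ATR1_like_miR) and 2 of 35S:MYB28_like_miR (MYB28_like_miR) against 2 of wild type (WT_miR). These MYB factors are regulators of glucosinolate synthesis, and 35S is a viral promoter active in most plant tissues. The labels name neither the promoter of the overexpressors nor the number of independent lines or pooled seedlings behind an array, and they do not say that replicates were grown apart, so p-values measure only the spread between these arrays. The title and the source field of MYB28_like_miR replicate 2 disagree on the construct, and its group was taken from the title. Probe sets of the MYB factors themselves were not analysed here, so the labels were not checked against them.

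Values are MAS5 signals, an intensity per probe set, and their mean without the outer 2% at each end was 250 on every array. The median signal of an array lay between 78.4 and 106.5, and the 20th percentile, used below as a floor, between 12.3 and 19.1. Replicate arrays correlated with r between 0.911 and 0.986 over the tested probe sets, lowest between WT_MYB29_MYB76 replicates 2 and 3. The WT_MYB29_MYB76 arrays stood apart from the rest in some control probe sets too. Their 25S ribosomal RNA control read 36.4, 6582 and 262.1, against 1.7 to 17.4 on the other 16 arrays, and their spike-in control Bs-dap-3 read 3.5, 0.8 and 2.4, against 25.8 to 302.8 elsewhere. In the 5S ribosomal RNA control they did not stand apart, with 31.6, 22.3 and 17.7, against 2.9 to 233.5 elsewhere. The ratio of the 3' to the 5' actin control probe set was 6.21, 11.5 and 4.03 in WT_MYB29_MYB76, 7.12 to 9.98 in the 2 miR lines and 1.83 to 7.93 elsewhere. Whether these differences play a part in the plastid signals was not tested. Nuclear leaf markers were abundant on all 19 arrays, where 4 probe sets summed to between 18693 and 45103, and the root markers EXPA7 and EXPA18 together read between 39 and 105.

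Plastid-encoded signal was high on every array of 3 groups, WT_MYB29_MYB76, ATR1_like_miR and MYB28_like_miR, and low on all 12 arrays of the other 6 groups. The 69 probe sets took 2.66%, 1.62% and 0.828% of the summed signal of the array in WT_MYB29_MYB76, 1.56% and 2.04% in ATR1_like_miR, and 1.88% and 1.43% in MYB28_like_miR. On the other 12 arrays they took between 0.034% and 0.115%. The high groups hold the wild type of 1 experiment and both lines of another, and leave out the wild type of that other experiment. Fewer plastids or cells of a type and less RNA in each cannot be told apart in such bulk samples.

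The median of the 69 signals was 2452, 970.7 and 257.1 in WT_MYB29_MYB76, 905.8 and 1857 in ATR1_like_miR, and 1299 and 610.5 in MYB28_like_miR. In MYB29_OE it was 43.3 and 34.1, in MYB76_OE 31.7 and 37.4, in ATR1_OE 42.8 and 44.5, in MYB51_OE 39.1 and 62.2, in WT_ATR1_MYB51 83.4 and 43.4, and in WT_miR 24.9 and 44.3. On those 12 arrays between 4 and 30 of the 69 lay above the median of all probe sets of the array, while on the 7 arrays of the high groups 48 to 68 did. The lowest of those 7 counts, 48, was that of WT_MYB29_MYB76 replicate 3. On every one of the 7 arrays, 47 of the 69 lay above their own highest value on the other 12. The high groups were named from these same signals, and the share of all probe sets so placed was not counted. The 47 are therefore description only. The map of all members by array shows the 7 arrays beside the other 12, with WT_MYB29_MYB76 replicate 3 as the weakest of the 7.

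**Figure D1:**
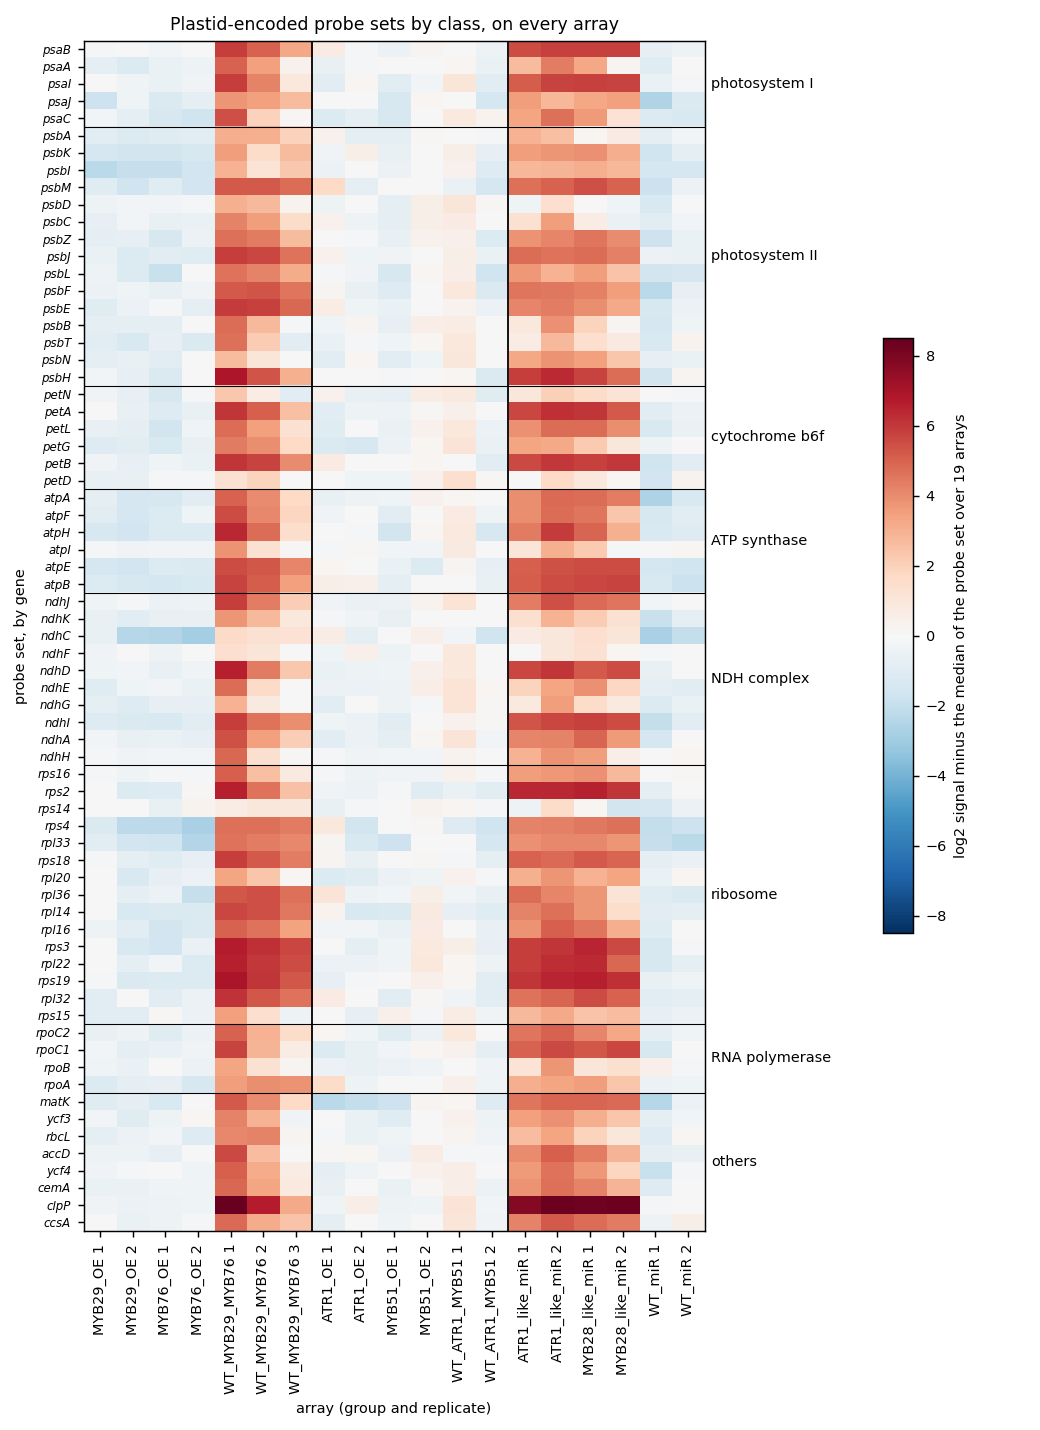
Heat map of the log2 signal of each of the 69 plastid-encoded probe sets (rows, by class) on each of the 19 arrays (columns, by group and replicate), as the difference from the median of that probe set over all arrays. Red columns are the arrays of WT_MYB29_MYB76, ATR1_like_miR and MYB28_like_miR, and vertical lines part the 3 experiments.

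To compare classes within an array, each signal was expressed as its log2 difference from the median of that probe set over the 19 arrays, since levels of different probe sets cannot be set against each other, and the median over the class was taken. Ribosomal genes had the highest class median on 4 of the 7 arrays of the high groups and the ATP synthase on the other 3. The ribosome medians were 5.26, 4.68 and 4.38 in WT_MYB29_MYB76, 4.24 and 4.70 in ATR1_like_miR and 4.46 and 3.77 in MYB28_like_miR. Those of the ATP synthase were 5.55, 4.41 and 1.76 in WT_MYB29_MYB76, 4.17 and 5.09 in ATR1_like_miR and 4.84 and 3.69 in MYB28_like_miR. The NDH complex had the lowest class median on 4 of the 7 arrays, with 4.81, 2.20 and 1.05 in WT_MYB29_MYB76, 2.43 and 3.71 in ATR1_like_miR and 3.73 and 1.52 in MYB28_like_miR.

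Photosystem I medians were 5.47, 3.495 and 0.93 in WT_MYB29_MYB76, 3.58 and 4.67 in ATR1_like_miR and 3.61 and 3.52 in MYB28_like_miR, and photosystem II medians 4.68, 3.58 and 2.67 in WT_MYB29_MYB76, 3.53 and 3.82 in ATR1_like_miR and 3.52 and 2.81 in MYB28_like_miR. The cytochrome b6f complex stood at 4.56, 3.73 and 1.48 in WT_MYB29_MYB76, 3.62 and 3.97 in ATR1_like_miR and 3.495 and 2.58 in MYB28_like_miR. RNA polymerase genes stood at 4.28, 2.95 and 1.10 in WT_MYB29_MYB76, 3.80 and 4.38 in ATR1_like_miR and 3.86 and 2.84 in MYB28_like_miR, and the 8 others at 4.996, 3.27 and 0.74 in WT_MYB29_MYB76, 3.94 and 4.81 in ATR1_like_miR and 4.30 and 2.90 in MYB28_like_miR. Classes lay closest together on WT_MYB29_MYB76 replicate 1, between 4.28 and 5.55, and widest apart on replicate 3, between 0.74 and 4.38. On replicate 3 the ribosomal genes kept a median near that of the other high arrays, photosystem II had 2.67, and the remaining classes lay between 0.74 and 1.76. On the 12 low arrays class medians ran from -1.43 to 0.88, and the ATP synthase was lowest on 5 of them. That order depended on the centre. With deviations taken from the mean of the 4 WT_ATR1_MYB51 and WT_miR arrays, the ATP synthase was lowest on 2 of the 12 and the RNA polymerase on 4.

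These orders are descriptions without a test. Within a class the members spread more widely than the class medians did: on WT_MYB29_MYB76 replicate 2 ribosomal deviations ran from 0.98 (rps14) to 6.21 (rps3) and NDH deviations from 0.74 (ndhG) to 4.63 (ndhI). Signals under the floor were raised to it, so the deviation of a gene whose median lies there is a lower bound. On the 12 low arrays between 4 and 18 of the 69 members were under the floor, and at most 2 were on the 7 high arrays. With quantile normalization the ribosome was highest on 4 of the 7 arrays, the ATP synthase on 2 and photosystem I on 1, and the NDH complex stayed lowest on 4. Gene length and deviation were weakly related over the 69 members, with Spearman's rho between -0.215 and 0.176 on the 7 high arrays.

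**Figure D2:**
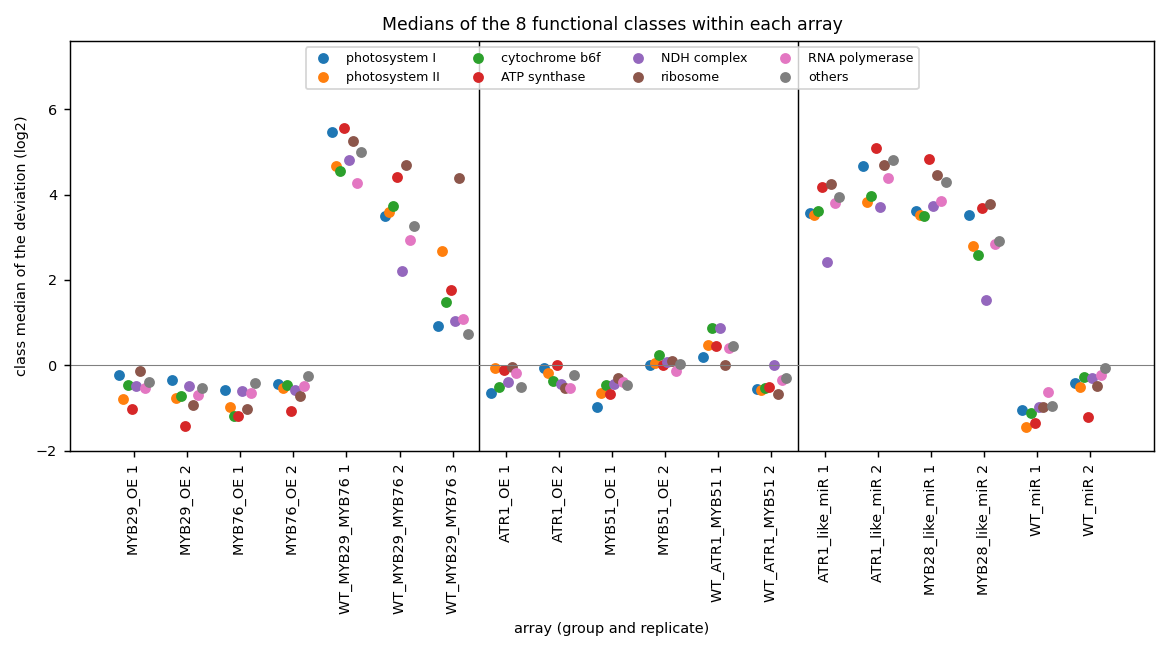
Median log2 deviation of each of the 8 classes (points, coloured by class) on each of the 19 arrays (x axis, by group and replicate; y axis in log2 units, 0 being the probe set's own median over the arrays). The classes lie between -1.43 and 0.88 on 12 arrays and at 0.74 or more on the 7 arrays of WT_MYB29_MYB76, ATR1_like_miR and MYB28_like_miR, where WT_MYB29_MYB76 replicate 3 shows the ribosome at 4.38 and the 8 others at 0.74.

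Each line was then tested against the wild type of its own experiment with limma, over 15630 probe sets, and a probe set was called at an adjusted p under 0.05. Of the members 68 were tested. 45 of these reached the filter on low signals on the 12 low arrays by themselves and 23 only through the 3 high groups. ndhF stayed below it. The filter thus favoured members that are high in those groups. The counts and medians that follow describe the tested members alone and include those 23, with no separate count for the 45. The shares of all probe sets beside them are given as description. In MYB29_OE 58 of 68 fell and none rose, where 6.63% of all probe sets fell and 8.09% rose. In MYB76_OE 54 fell and none rose, where 5.6% of all fell and 7.15% rose. The median change of the members was -4.28 in each of these lines on the log2 scale, beside 0.06 and 0.05 for all probe sets. In ATR1_like_miR 54 rose and none fell, where 0.87% of all rose and 1.15% fell. In MYB28_like_miR 51 rose and none fell, where 2.06% of all rose and 4.37% fell. Their median changes were 5.12 and 4.50, beside -0.10 and -0.14 for all probe sets.

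Which wild type served as the control decided the result of the 2 overexpressing lines. The other wild types belong to other experiments, so line and experiment cannot be told apart in those comparisons. Set against the 4 low wild type arrays, WT_ATR1_MYB51 and WT_miR together, no member was called by limma in MYB29_OE (1 at an unadjusted p under 0.05) or in MYB76_OE (0 at an unadjusted p under 0.05), and the median changes were -0.31 and -0.34. The calls in these lines thus rest on the high signals of WT_MYB29_MYB76. Leaving out its replicate 3, the weakest of the 3 arrays, raised the counts to 66 in each line, and leaving out its replicate 1 gave 49 in MYB29_OE and 50 in MYB76_OE. For the miR lines the wild type of the ATR1/MYB51 experiment, which is low too, gave 58 called in ATR1_like_miR and 49 in MYB28_like_miR, all higher. When the control was every wild type array of the series, high and low, 1 and 0 were called by limma in ATR1_like_miR and MYB28_like_miR (40 and 33 at an unadjusted p under 0.05). The median changes of the members were then 2.88 and 2.41. That control joins high and low arrays in 1 group, so the gap between them counted as spread. The miR lines were not tested against WT_MYB29_MYB76 alone. For the counts with other controls or with an array left out, the share of all probe sets called is not given here. Those counts are description only.

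In ATR1_OE and in MYB51_OE no member was called by limma, where 15.2% and 1.38% of all probe sets were. In each line 2 of 68 members had an unadjusted p under 0.05, beside 4734 and 1720 of all 15630 probe sets. The median change of the members was -0.33 in ATR1_OE and -0.23 in MYB51_OE, beside -0.13 and -0.07 for all probe sets. The plot of log2 changes by class sets these flat distributions beside the falls and rises of the other 4 lines.

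**Figure D3:**
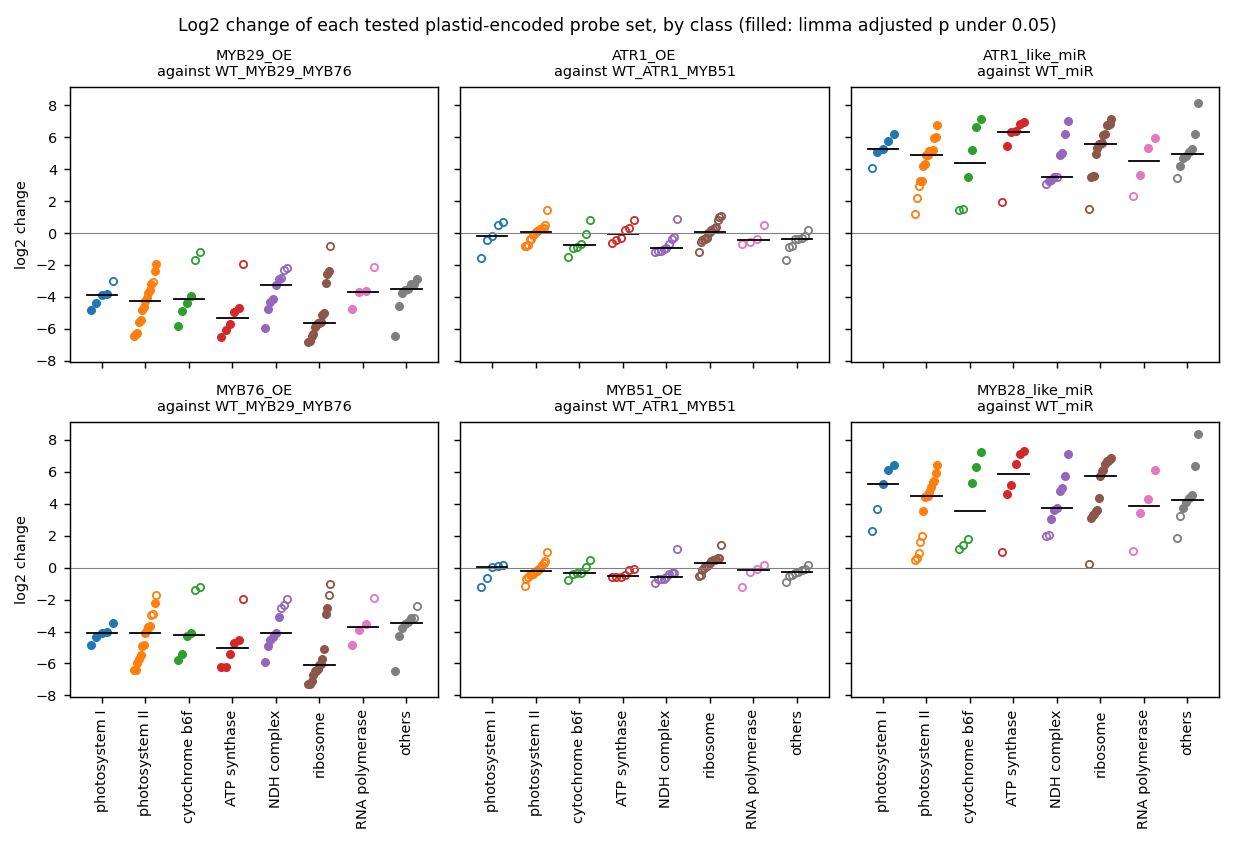
Log2 change of each of the 68 tested members (points) in the 6 lines against the wild type of the same experiment, by class; black bars are class medians and filled points passed limma's adjusted p of 0.05. Points lie below 0 in MYB29_OE and MYB76_OE, around 0 with none filled in ATR1_OE and MYB51_OE, and above 0 in ATR1_like_miR and MYB28_like_miR.

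Photosystem I takes electrons from plastocyanin and passes them to ferredoxin. Of its 5 plastid genes on the array, 4 of 5 fell in MYB29_OE and 5 in MYB76_OE, and 4 of 5 rose in ATR1_like_miR and 3 in MYB28_like_miR. The signal of psaJ was 97.8 and 262 in MYB29_OE and 140.5 and 185 in MYB76_OE, against 4394, 3720 and 2175 in WT_MYB29_MYB76. Among the ATR1/MYB51 arrays it was 321 and 329.9 in ATR1_OE and 127 and 366 in MYB51_OE, against 340.0 and 119.6 in WT_ATR1_MYB51. The miR arrays gave 3943 and 2301 in ATR1_like_miR and 3194 and 3782 in MYB28_like_miR, against 56.6 and 143 in WT_miR. psaJ, a small membrane subunit, had the highest mean log2 signal of the class, and its values in WT_MYB29_MYB76 and in the miR lines did not overlap with those of any other group. psaC, which holds the terminal iron-sulfur clusters, had the lowest. Its signal was 36.7 and 25.9 in MYB29_OE and 16.5 and 11.5 in MYB76_OE, against 1905, 168 and 45.7 in WT_MYB29_MYB76. Among the miR arrays its signal was 439 and 1097 in ATR1_like_miR and 524.5 and 103 in MYB28_like_miR, against 18.9 and 5.33 in WT_miR. It thus varied widely among replicates of the high groups, most in WT_MYB29_MYB76.

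The largest changes of the class were those of psaB, a core protein of the photosystem I reaction centre. On the log2 scale, by limma, psaB fell by 4.81 (SE 0.50, adjusted p = 2.03e-05) in MYB29_OE and by 4.87 (SE 0.50, adjusted p = 1.7e-05) in MYB76_OE. It rose by 6.22 (SE 0.55, adjusted p = 6.25e-06) in ATR1_like_miR and by 6.40 (SE 0.55, adjusted p = 4.54e-06) in MYB28_like_miR. The smallest change was that of psaC in MYB29_OE, -2.99 (SE 1.05, adjusted p = 0.0661), and that of psaA, the other core protein, in the remaining lines. psaA fell by 3.44 (SE 0.997, adjusted p = 0.0346) in MYB76_OE, and was not called in ATR1_like_miR, 4.06 (SE 1.09, adjusted p = 0.0671), or in MYB28_like_miR, 2.28 (SE 1.09, adjusted p = 0.22). psaA and psaB neighbour each other in the genome and differed across arrays. psaA read 3011, 1034 and 121 in WT_MYB29_MYB76 and 906 and 111 in MYB28_like_miR, and psaB read 6532, 3543 and 1079 in WT_MYB29_MYB76 and 6297 and 6311 in MYB28_like_miR. psaA was therefore near its low level on WT_MYB29_MYB76 replicate 3 and MYB28_like_miR replicate 2, while psaB stayed far above its low level on all of these arrays. Over the tested members of the class the median log2 change was -3.89 in MYB29_OE, -4.10 in MYB76_OE, 5.25 in ATR1_like_miR and 5.27 in MYB28_like_miR.

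Photosystem II splits water. Of its 15 genes, 14 of 15 fell in MYB29_OE and 12 in MYB76_OE, and 11 of 15 rose in ATR1_like_miR and 10 in MYB28_like_miR. psbM had a signal of 90.8 and 57.5 in MYB29_OE and 94.4 and 60.4 in MYB76_OE, against 6907, 7159 and 4993 in WT_MYB29_MYB76. The ATR1/MYB51 experiment gave psbM signals of 597 and 109 in ATR1_OE and 189 and 192 in MYB51_OE, against 125 and 71.2 in WT_ATR1_MYB51. With the miR constructs psbM had 4857 and 6112 in ATR1_like_miR and 8359 and 6200 in MYB28_like_miR, against 52.9 and 134 in WT_miR. psbM, a small subunit, had the highest mean signal of the class and was even among the high arrays, with 1.43-fold between the WT_MYB29_MYB76 replicates. psbN, whose product is needed for photosystem II assembly, had the lowest. Its signal was 2.04 and 16.7 in MYB29_OE and 12.6 and 27 in MYB76_OE, against 168.5, 51.5 and 25.8 in WT_MYB29_MYB76. The miR experiment gave it 253 and 364 in ATR1_like_miR and 292 and 131 in MYB28_like_miR, against 10.8 and 13.5 in WT_miR. Here WT_MYB29_MYB76 replicate 3 lay below MYB76_OE replicate 2, so that these groups overlapped.

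By limma psbM fell by 6.44 (SE 0.53, adjusted p = 1.73e-06) in MYB29_OE, the largest change of the class there, and in MYB76_OE the largest was that of psbJ, another small subunit, which fell by 6.40 (SE 0.37, adjusted p = 4.46e-08). The largest rises were those of psbH, a small phosphorylated subunit, by 6.77 (SE 0.88, adjusted p = 0.000475) in ATR1_like_miR, and of psbM by 6.42 (SE 0.58, adjusted p = 9.39e-06) in MYB28_like_miR. psbN fell by 1.96 (SE 0.63, adjusted p = 0.0479) in MYB29_OE and was not called in MYB76_OE, -1.69 (SE 0.63, adjusted p = 0.0881). The smallest changes in the miR lines were those of psbD, which encodes the reaction centre protein D2: 1.19 (SE 0.75, adjusted p = 0.472) in ATR1_like_miR and 0.47 (SE 0.75, adjusted p = 0.753) in MYB28_like_miR, neither called. Class medians of the log2 change were -4.25 in MYB29_OE, -4.06 in MYB76_OE, 4.86 in ATR1_like_miR and 4.50 in MYB28_like_miR.

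Further genes of photosystem II, psbA, psbB, psbC and psbT, were chosen for description after their values had been seen. psbA, for the D1 protein, read 1938 and 1455 in ATR1_like_miR and 281 and 399 in MYB28_like_miR, against 144 and 215 in WT_miR. It rose by 3.26 (SE 0.42, adjusted p = 0.000426) in ATR1_like_miR by limma and was not called in MYB28_like_miR, 0.93 (SE 0.42, adjusted p = 0.191). The difference between the 2 lines missed the threshold, with 2.33 (SE 0.42, adjusted p = 0.0636), though their arrays did not overlap. psbC, for the antenna protein CP43, read 439 and 2108 in ATR1_like_miR and 278 and 123.4 in MYB28_like_miR, against 96.7 and 156 in WT_miR. psbB, for the antenna protein CP47, read 211 and 1642 in ATR1_like_miR and 423 and 134 in MYB28_like_miR, against 41.7 and 86.9 in WT_miR, and was called in neither line. psbT, a small subunit whose gene follows psbB, was called in none of the 4 comparisons, with 1002, 177 and 21 in WT_MYB29_MYB76.

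The cytochrome b6f complex links both photosystems. Of its 6 plastid genes, 4 of 6 fell in MYB29_OE and 4 in MYB76_OE, and 4 of 6 rose in ATR1_like_miR and 3 in MYB28_like_miR. For petB the arrays read 103 and 76.2 in MYB29_OE and 96.2 and 84.6 in MYB76_OE, against 8650, 6856 and 2056 in WT_MYB29_MYB76. petB read 205 and 126 in ATR1_OE and 124 and 138 in MYB51_OE, against 126 and 67.7 in WT_ATR1_MYB51. Its miR experiment values were 6161 and 8188 in ATR1_like_miR and 7164 and 8115 in MYB28_like_miR, against 39 and 65.4 in WT_miR. petB, for cytochrome b6, had the highest mean signal, and its 7 high arrays lay between 2056 and 8650, far above the highest other value, 205. petN, for a small subunit, had the lowest. Its signal was 32.4 and 24.9 in MYB29_OE and 15.8 and 36.2 in MYB76_OE, against 195, 64.1 and 20.5 in WT_MYB29_MYB76. Its miR values were 80.2 and 162 in ATR1_like_miR and 120.5 and 91.8 in MYB28_like_miR, against 40.5 and 38.6 in WT_miR. WT_MYB29_MYB76 replicate 3 lay within the range of the overexpressing lines, and the miR lines lay above WT_miR on every array.

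petB had the largest change of the class in all 4 comparisons by limma. petB fell by 5.80 (SE 0.46, adjusted p = 1.1e-06) in MYB29_OE and by 5.78 (SE 0.46, adjusted p = 1.02e-06) in MYB76_OE. It rose by 7.14 (SE 0.51, adjusted p = 6.43e-07) in ATR1_like_miR and by 7.24 (SE 0.51, adjusted p = 5.93e-07) in MYB28_like_miR. The change of petN was the smallest in MYB29_OE, -1.16 (SE 0.75, adjusted p = 0.314), and in the other 3 lines it was that of petD, for subunit IV. The log2 change of petD was -1.21 (SE 0.63, adjusted p = 0.214) in MYB76_OE, 1.47 (SE 0.69, adjusted p = 0.303) in ATR1_like_miR and 1.18 (SE 0.69, adjusted p = 0.319) in MYB28_like_miR, and it was called in none. petB and petD neighbour each other, and petB separated the 7 high arrays from the 12 low ones while petD did not. petD read 139.5, 204 and 56 in WT_MYB29_MYB76, and its highest value on the 12 low arrays was 154. The median log2 change of its tested members was -4.15 in MYB29_OE, -4.20 in MYB76_OE, 4.36 in ATR1_like_miR and 3.54 in MYB28_like_miR.

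The plastid ATP synthase has an extrinsic part, to which atpA, atpB and atpE contribute, and a membrane part with atpF, atpH and atpI. Of these 6 genes, 5 of 6 fell in MYB29_OE and 5 in MYB76_OE, and 5 of 6 rose in ATR1_like_miR and 5 in MYB28_like_miR. The signal of atpB was 84.6 and 72.2 in MYB29_OE and 64.8 and 75.1 in MYB76_OE, against 9850, 6701 and 2110 in WT_MYB29_MYB76. Among the ATR1/MYB51 arrays it was 266.5 and 253 in ATR1_OE and 109 and 186.5 in MYB51_OE, against 185 and 122 in WT_ATR1_MYB51. The miR arrays gave 6646 and 8907 in ATR1_like_miR and 9608 and 9936 in MYB28_like_miR, against 75.1 and 51.6 in WT_miR. atpB, for the catalytic beta subunit, had the highest mean signal, and its lowest high array, WT_MYB29_MYB76 replicate 3 with 2110, lay far above the highest of the other 12, 266.5. atpI, for the a subunit of the membrane part, had the lowest. Its signal was 9.55 and 0.755 in MYB29_OE and 5.34 and 2.48 in MYB76_OE, against 224, 39.4 and 10.7 in WT_MYB29_MYB76. The signals with miR were 31.6 and 131 in ATR1_like_miR and 74.6 and 10.7 in MYB28_like_miR, against 10.6 and 4.39 in WT_miR. The values of MYB29_OE, MYB76_OE and WT_miR all lay under the floor, and so did those of WT_MYB29_MYB76 replicate 3 and MYB28_like_miR replicate 2.

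The largest falls by limma were those of atpE, for the epsilon subunit, by 6.53 (SE 0.35, adjusted p = 2.29e-08) in MYB29_OE and by 6.23 (SE 0.35, adjusted p = 3.81e-08) in MYB76_OE. The largest rises were those of atpB, by 6.95 (SE 0.49, adjusted p = 6.43e-07) in ATR1_like_miR and by 7.29 (SE 0.49, adjusted p = 5.56e-07) in MYB28_like_miR. atpI was the single member of the class that was called in none of the 4 comparisons. Its fitted change on floored values was -1.96 (SE 0.87, adjusted p = 0.138) in MYB29_OE, which is no bound since both groups held raised values, and it was higher by at least 1.95 (SE 0.95, adjusted p = 0.328) in ATR1_like_miR. Between the WT_MYB29_MYB76 replicates atpE differed 2.69-fold and atpH, for the ring subunit, 29.6-fold, the widest range of the class. Over the tested members of the class the median log2 change was -5.33 in MYB29_OE, -5.05 in MYB76_OE, 6.35 in ATR1_like_miR and 5.85 in MYB28_like_miR.

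The NDH complex carries electrons back from ferredoxin to plastoquinone in cyclic electron flow. Of its 9 tested genes, 6 of 9 fell in MYB29_OE and 6 in MYB76_OE, and 6 of 9 rose in ATR1_like_miR and 7 in MYB28_like_miR. ndhC had a signal of 723.5 and 205 in MYB29_OE and 201 and 147.5 in MYB76_OE, against 3490, 2671 and 2575 in WT_MYB29_MYB76. The ATR1/MYB51 experiment gave ndhC signals of 1708 and 623 in ATR1_OE and 1113 and 1492 in MYB51_OE, against 930.2 and 341 in WT_ATR1_MYB51. With the miR constructs ndhC had 1810 and 2155 in ATR1_like_miR and 2983 and 2284 in MYB28_like_miR, against 163 and 268 in WT_miR. ndhC had the highest mean signal of the class, and ATR1_OE replicate 1 came close to its lowest high array, ATR1_like_miR replicate 1. The 7 high arrays still lay above all others. ndhF, the member with the lowest mean, was not tested. Its signal was 12.7 and 17.9 in MYB29_OE and 8.08 and 18.1 in MYB76_OE, against 48.2, 37 and 17.7 in WT_MYB29_MYB76. The miR arrays read 17.6 and 35.6 in ATR1_like_miR and 44.5 and 19.7 in MYB28_like_miR, against 16.9 and 3.45 in WT_miR. The highest of these was that of WT_MYB29_MYB76 replicate 1.

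ndhI, for a subunit with iron-sulfur clusters, had the largest changes by limma. ndhI fell by 5.96 (SE 0.44, adjusted p = 5.5e-07) in MYB29_OE and by 5.92 (SE 0.44, adjusted p = 4.16e-07) in MYB76_OE. It rose by 7.01 (SE 0.48, adjusted p = 6.43e-07) in ATR1_like_miR and by 7.15 (SE 0.48, adjusted p = 5.56e-07) in MYB28_like_miR. The smallest were those of ndhG, -2.17 (SE 0.75, adjusted p = 0.0648) in MYB29_OE, -1.96 (SE 0.75, adjusted p = 0.0983) in MYB76_OE and 3.06 (SE 0.82, adjusted p = 0.0675) in ATR1_like_miR. In MYB28_like_miR ndhH differed least, by at least 1.96 (SE 1.09, adjusted p = 0.294). None of these 4 values was called, although the arrays of the groups did not overlap. Class medians of the log2 change were -3.28 in MYB29_OE, -4.07 in MYB76_OE, 3.51 in ATR1_like_miR and 3.72 in MYB28_like_miR.

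The 15 ribosomal genes encode proteins of the small (rps) and large (rpl) subunit of the bacterial-type plastid ribosome. Of these, 14 of 15 fell in MYB29_OE and 13 in MYB76_OE, and 14 of 15 rose in ATR1_like_miR and 14 in MYB28_like_miR. For rps4 the arrays read 156 and 79.3 in MYB29_OE and 78.7 and 53.5 in MYB76_OE, against 9571, 9377 and 7668 in WT_MYB29_MYB76. rps4 read 692 and 126.5 in ATR1_OE and 366 and 392 in MYB51_OE, against 169 and 115.5 in WT_ATR1_MYB51. Its miR experiment values were 6916 and 7178 in ATR1_like_miR and 8044 and 9563 in MYB28_like_miR, against 89 and 106.5 in WT_miR. rps4, which binds ribosomal RNA early in assembly of the small subunit in bacteria, had the highest mean signal. It was also the member with the smallest range between the WT_MYB29_MYB76 replicates, 1.25-fold. rps16 had the lowest mean of the class. Its signal was 8.39 and 8.06 in MYB29_OE and 15.7 and 15.5 in MYB76_OE, against 571.5, 97.7 and 29.5 in WT_MYB29_MYB76. With the miR constructs it read 194 and 214 in ATR1_like_miR and 247 and 113 in MYB28_like_miR, against 16.6 and 8.17 in WT_miR. Even this dim member separated the groups, with a 19.3-fold range inside WT_MYB29_MYB76.

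The largest falls by limma were those of rps3, by 6.83 (SE 0.53, adjusted p = 7.89e-07) in MYB29_OE and by 7.29 (SE 0.53, adjusted p = 3.43e-07) in MYB76_OE. rpl22 rose by 7.17 (SE 0.51, adjusted p = 6.43e-07) in ATR1_like_miR and rps19 by 6.90 (SE 0.48, adjusted p = 5.93e-07) in MYB28_like_miR, the largest rises there. These 3 genes lie side by side in the plastid genome. rps14 had the smallest change of the class in all 4 comparisons, -0.83 (SE 0.55, adjusted p = 0.32) in MYB29_OE, -1.002 (SE 0.55, adjusted p = 0.237) in MYB76_OE, 1.502 (SE 0.60, adjusted p = 0.225) in ATR1_like_miR and 0.25 (SE 0.60, adjusted p = 0.843) in MYB28_like_miR. It was called in none of them, and its signal was 64.8, 84.4 and 81.7 in WT_MYB29_MYB76 and 47 and 4.59 in MYB28_like_miR. The median log2 change of its tested members was -5.63 in MYB29_OE, -6.09 in MYB76_OE, 5.60 in ATR1_like_miR and 5.74 in MYB28_like_miR.

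The 4 rpo genes encode the core of the bacterial-type plastid RNA polymerase. Of these, 3 of 4 fell in MYB29_OE and 3 in MYB76_OE, and 3 of 4 rose in ATR1_like_miR and 3 in MYB28_like_miR. The signal of rpoA was 91 and 113 in MYB29_OE and 124 and 78.1 in MYB76_OE, against 2388, 3180 and 2826 in WT_MYB29_MYB76. Among the ATR1/MYB51 arrays it was 587 and 149.8 in ATR1_OE and 193 and 202 in MYB51_OE, against 274 and 156 in WT_ATR1_MYB51. The miR arrays gave 1700 and 2099 in ATR1_like_miR and 2411 and 1045 in MYB28_like_miR, against 145 and 154 in WT_miR. rpoA, for the alpha subunit, had the highest mean signal and differed 1.33-fold between the WT_MYB29_MYB76 replicates. rpoB, for the beta subunit, had the lowest. Its signal was 13.1 and 3.78 in MYB29_OE and 19.3 and 11.4 in MYB76_OE, against 194, 47.7 and 22.5 in WT_MYB29_MYB76. On the miR arrays it was 41.9 and 255 in ATR1_like_miR and 38.8 and 48.8 in MYB28_like_miR, against 25.4 and 15.3 in WT_miR. Replicate 1 of WT_MYB29_MYB76 and replicate 2 of ATR1_like_miR stood far above the other arrays.

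By limma rpoA fell by 4.78 (SE 0.45, adjusted p = 8.64e-06) in MYB29_OE and by 4.82 (SE 0.45, adjusted p = 6.92e-06) in MYB76_OE, the largest changes of the class there. In the miR lines the largest were those of rpoC1, for the beta' subunit, which rose by 5.96 (SE 1.01, adjusted p = 0.00497) in ATR1_like_miR and by 6.13 (SE 1.01, adjusted p = 0.00274) in MYB28_like_miR. rpoB had the smallest change in each of the 4 comparisons and was called in none. It was lower by at least 2.12 (SE 0.74, adjusted p = 0.0653) in MYB29_OE, and its changes were -1.88 (SE 0.74, adjusted p = 0.106) in MYB76_OE, 2.29 (SE 0.81, adjusted p = 0.169) in ATR1_like_miR and 1.04 (SE 0.81, adjusted p = 0.473) in MYB28_like_miR. rpoB and rpoC1 neighbour each other, yet rpoC1 read 1523 and 2000 in MYB28_like_miR, against 6.36 and 39.7 in WT_miR. rpoA, which lies in the ribosomal cluster, kept its level on WT_MYB29_MYB76 replicate 3, where rpoC1 read 62.4. Over the tested members of the class the median log2 change was -3.67 in MYB29_OE, -3.74 in MYB76_OE, 4.50 in ATR1_like_miR and 3.85 in MYB28_like_miR.

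Among the 8 other genes, 8 of 8 fell in MYB29_OE and 6 in MYB76_OE, and 7 of 8 rose in ATR1_like_miR and 6 in MYB28_like_miR. cemA had a signal of 80.8 and 81.1 in MYB29_OE and 92.3 and 93.9 in MYB76_OE, against 3538, 1198 and 211 in WT_MYB29_MYB76. The ATR1/MYB51 experiment gave cemA signals of 76 and 113 in ATR1_OE and 79.2 and 124 in MYB51_OE, against 174 and 84.6 in WT_ATR1_MYB51. With the miR constructs cemA had 1692 and 3051 in ATR1_like_miR and 2222 and 879 in MYB28_like_miR, against 54.5 and 118 in WT_miR. cemA, for a protein of the inner envelope membrane, had the highest mean signal, and WT_MYB29_MYB76 replicate 3 lay close to the low groups. ycf3, for a photosystem I assembly factor, had the lowest. Its signal was 23.3 and 13.1 in MYB29_OE and 20.4 and 29.8 in MYB76_OE, against 505, 205 and 21.6 in WT_MYB29_MYB76. Its signals on miR arrays were 295 and 396 in ATR1_like_miR and 230.1 and 139.9 in MYB28_like_miR, against 13.1 and 22.6 in WT_miR. In the wild type of the first experiment 1 array lay within the range of the overexpressing lines.

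clpP, for the proteolytic subunit of the Clp protease, had the largest changes of all 68 tested members in the miR lines, and of this class in the overexpressing lines. For clpP the arrays read 3.55 and 4.15 in MYB29_OE and 4.42 and 13.8 in MYB76_OE, against 5960, 1778 and 162 in WT_MYB29_MYB76. clpP read 10.7 and 26.6 in ATR1_OE and 6.26 and 7.99 in MYB51_OE, against 40.1 and 13.6 in WT_ATR1_MYB51. Its miR experiment values were 3989 and 5600 in ATR1_like_miR and 5322 and 5706 in MYB28_like_miR, against 7.88 and 16.9 in WT_miR. It was at the floor in MYB29_OE and in WT_miR and high on all 4 arrays of the miR lines. By limma clpP fell by at least 6.46 (SE 0.93, adjusted p = 0.000496) in MYB29_OE and by 6.47 (SE 0.93, adjusted p = 0.000429) in MYB76_OE. It rose by at least 8.15 (SE 1.01, adjusted p = 0.000327) in ATR1_like_miR and by at least 8.37 (SE 1.01, adjusted p = 0.000218) in MYB28_like_miR. The smallest changes were those of ycf3 in the overexpressing lines and of rbcL, for the large subunit of Rubisco, in the miR lines. ycf3 fell by 2.91 (SE 0.86, adjusted p = 0.0346) in MYB29_OE and was not called in MYB76_OE, -2.41 (SE 0.86, adjusted p = 0.0764). rbcL was called in neither miR line, with 3.44 (SE 0.91, adjusted p = 0.0622) in ATR1_like_miR and 1.89 (SE 0.91, adjusted p = 0.22) in MYB28_like_miR. Its signal was 448 and 756 in ATR1_like_miR and 273 and 144 in MYB28_like_miR, against 35.1 and 81.5 in WT_miR. Class medians of the log2 change were -3.53 in MYB29_OE, -3.45 in MYB76_OE, 4.96 in ATR1_like_miR and 4.25 in MYB28_like_miR.

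**Figure D4:**
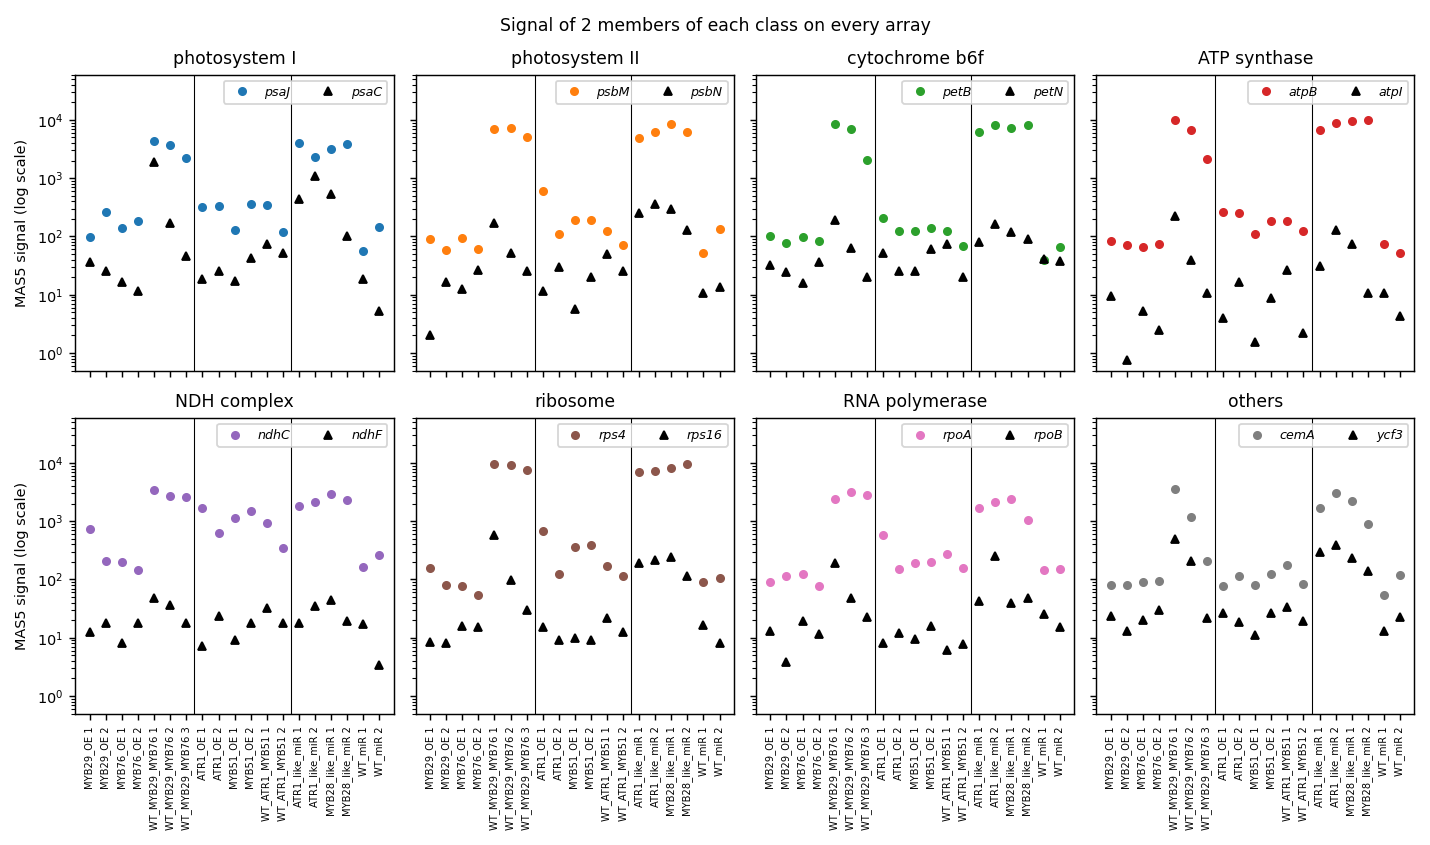
MAS5 signal (log scale) on each of the 19 arrays for the member with the highest mean signal (circles) and the one with the lowest (triangles) in each of the 8 classes; vertical lines part the experiments. The circles rise on the arrays of WT_MYB29_MYB76, ATR1_like_miR and MYB28_like_miR, where rps4 reads between 6916 and 9571, and ndhC is high on several arrays of the middle experiment too.

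In the ATR1/MYB51 experiment the changes of the 68 members lay between -1.68 and 1.44 in ATR1_OE and between -1.22 and 1.44 in MYB51_OE, and none was called. From photosystem I to the others, the largest log2 change of each class in ATR1_OE was that of psaC (-1.54), psbM (1.44), petG (-1.51), atpB (0.79), ndhE (-1.20), rpl20 (-1.20), rpoC1 (-0.67) and matK (-1.68). In MYB51_OE it was that of psaC (-1.22), psbN (-1.12), petD (-0.80), atpE (-0.61), ndhC (1.20), rps4 (1.44), rpoC2 (-1.19) and clpP (-0.88). Of these, petG in ATR1_OE and clpP in MYB51_OE lay at the floor on both arrays, and rpl20 in ATR1_OE and rpoC2 and psbN in MYB51_OE on 1 array. The largest in ATR1_OE, matK, encodes the maturase that splices plastid introns. Its signal was 22.8 and 28.2 in ATR1_OE, against 125 and 52.6 in WT_ATR1_MYB51, with -1.68 (SE 0.89, adjusted p = 0.22) by limma. rps4, the largest in MYB51_OE, read 366 and 392 there, against 169 and 115.5 in wild type, with 1.44 (SE 0.52, adjusted p = 0.287). Class medians ran from -0.92 (NDH complex) to 0.09 (ribosome) in ATR1_OE, and from -0.60 (NDH complex) to 0.30 (ribosome) in MYB51_OE.

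Lines of the same experiment did not differ in any member by limma's adjusted p. Between MYB29_OE and MYB76_OE 0 of 68 had an unadjusted p under 0.05, beside 514 of all 15630 probe sets, and 0.0256% of all were called. The median difference was 0.01, and the largest was that of ndhC, 1.16 (SE 0.55, adjusted p = 1). ATR1_OE and MYB51_OE differed at an unadjusted p under 0.05 in 1 of 68, beside 2959 of all 15630 probe sets, and 2.67% of all were called. The median difference was -0.03, with the largest in matK, -1.38 (SE 0.89, adjusted p = 0.443). Between ATR1_like_miR and MYB28_like_miR 5 of 68 had an unadjusted p under 0.05, beside 1214 of all 15630 probe sets, and 0.032% of all were called. The median difference was 0.31 and the largest was that of psbC, 2.38 (SE 0.77, adjusted p = 0.463). The largest of the other classes included that of rpl36, for a protein of the large ribosomal subunit, 1.98 (SE 0.69, adjusted p = 0.505), and that of petG, a small subunit of cytochrome b6f, 1.73 (SE 0.71, adjusted p = 0.569).

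The labels of the 3 wild type groups differ in the experiment they name, and experiment and group cannot be told apart among them. In WT_MYB29_MYB76 49 of 68 members were higher than in WT_ATR1_MYB51, where 3.6% of all probe sets were higher and 3.08% lower. 60 were higher than in WT_miR, where 7.92% of all were higher and 13.2% lower, and no member was lower in either. The median differences were 3.40 and 4.16. Without WT_ATR1_MYB51 replicate 2 the first count was 27, and without replicate 3 of WT_MYB29_MYB76 it was 60. The largest difference from WT_ATR1_MYB51 was that of rps19, 6.53 (SE 0.44, adjusted p = 2.46e-07), and the largest from WT_miR that of rpl22, 7.15 (SE 0.46, adjusted p = 1.84e-07). Between WT_ATR1_MYB51 and WT_miR 2 members were called, both higher, where 5.69% of all probe sets were higher and 7.34% lower. These were atpE, 1.33 (SE 0.38, adjusted p = 0.0293), and ndhI, 1.70 (SE 0.48, adjusted p = 0.0291). atpE read 207 and 108 in WT_ATR1_MYB51, against 64 and 55 in WT_miR, and limma called no member without WT_ATR1_MYB51 replicate 1 (2 at an unadjusted p under 0.05) or without WT_miR replicate 1 (3 at an unadjusted p under 0.05).

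The 3 arrays of WT_MYB29_MYB76 differed in the size of the plastid signal and in which genes kept it. Between its lowest and highest array the members differed 6.57-fold in the median, against 1.42-fold in ATR1_like_miR and 1.63-fold in MYB28_like_miR. Each miR line has only 2 arrays, and a range over 3 arrays tends to be wider. In WT_MYB29_MYB76 the median of the classes ran from 2.80-fold (ribosome) and 3.99-fold (photosystem II) to 19.3-fold (others) and 24.9-fold (photosystem I). The narrowest range was that of rps4 and the widest that of accD, for a subunit of acetyl-CoA carboxylase, which read 1381, 169 and 27.9. psbT with 47.7-fold and psaC with 41.7-fold came next among the widest of their classes. At the other end, after rps4, stood rps14 with 1.30-fold, rpoA with 1.33-fold, ndhC with 1.36-fold and psbM with 1.43-fold. Of these, rps14 was dim on each array, with 64.8, 84.4 and 81.7, so its narrow range does not stand for a high signal that was kept.

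The values of 2 stretches of neighbouring genes, chosen for description after they had been seen, are given here by gene. In the ribosomal stretch that ends at rpoA, described above, rpl22 read 5598, 3674 and 2623, rps3 4278, 3046 and 2097, rpl16 1959, 1487 and 643, rpl14 1622, 1402 and 679, rpl36 4529, 5335 and 2993 and rps19 3731, 2029 and 1169 on the 3 arrays. The other stretch holds psbE and psbF, for cytochrome b559, with psbL and psbJ: psbE read 6317, 5852 and 3004, psbF 6896, 7558 and 4285, psbL 1197, 887 and 429 and psbJ 3062, 2644 and 1249. For these 10 genes, all but rpoA of those named in the 2 stretches, replicate 3 was the lowest of the 3 arrays, and the widest of these ranges was that of rps19, 3.19-fold. In MYB28_like_miR the end of the ribosomal stretch was uneven, with 1629 and 267 for rpl36 and 422.5 and 88.6 for rpl14, beside 2852 and 2254 for rps19. Over all 64 pairs of adjacent members, the median absolute difference in deviation was 1.21 on WT_MYB29_MYB76 replicate 3, beside 1.84 for the other 2282 pairs. On the first array these were 1.222 and 1.295, on the second 1.21 and 1.64, and on the 4 arrays of the miR lines 1.16 to 2.05 and 1.35 to 2.13. Pairs share genes and arrays, so no test was made.

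Summed, the probe sets of several plastid genes were high on the same arrays as the members, and the mitochondrial ones less clearly so. The 8 probe sets annotated to several plastid genes, mostly in the inverted repeat (rps12, rpl2, rpl23, ycf2, ndhB, rps7 and ycf1), summed to between 9491 and 20218 in WT_MYB29_MYB76, 15345 and 19842 in ATR1_like_miR and 17614 and 19329 in MYB28_like_miR, and to between 220 and 802 in the other 6 groups. Most of the high sums came from rpl2 and rpl23, which read 6497 and 2632 on WT_MYB29_MYB76 replicate 3. ycf2 and ndhB did not set the arrays apart. ycf2 read 38.47, 31.6 and 26.0 in WT_MYB29_MYB76 and 51.06 on MYB51_OE replicate 2. ndhB read 118.7, 77.69 and 47.66 in WT_MYB29_MYB76 and 149.6 on WT_ATR1_MYB51 replicate 1. By limma 5 of the 8 fell in each of MYB29_OE and MYB76_OE and 5 rose in each miR line. The 22 mitochondrial probe sets summed to between 673 and 1478 in WT_MYB29_MYB76, 1455 and 1879 in ATR1_like_miR and 1193 and 1486 in MYB28_like_miR. In the other groups they summed to between 345 and 674, so that the lowest WT_MYB29_MYB76 array lay within their range. A single probe set, that of ccb382, read 517.8 and 887.1 in ATR1_like_miR and 439.2 and 585.0 in MYB28_like_miR, against 32.64 and 70.83 in WT_miR, and thus made up much of the sums of the miR lines. Of the 8 that were tested, 4 fell in MYB29_OE, 3 fell in MYB76_OE and 3 rose in each miR line. Mitochondrial nad4, for a subunit of respiratory complex I, read 164.4 and 138.5 in ATR1_like_miR and 126.6 and 200.1 in MYB28_like_miR, against 2.976 and 3.931 in WT_miR.

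Nuclear partners of the plastid complexes differed by 1.12 or less on the log2 scale where they were called in a line against the wild type of its own experiment. On the array 12 of them could be named: LHCB4.1, LHCB4.2 and LHCB4.3, which bind antenna chlorophyll, the photosystem subunits PSBY, PSBW, PSAE-1 and PSAN, the ATP synthase subunits ATPC1 and ATPC2, and NdhL, NdhS and NdhN. In ATR1_like_miR none of the 12 was called by limma, and in MYB28_like_miR PSBY rose by 0.49 and PSBW by 0.59. PSBW fell by 0.38 and NdhS by 1.12 in MYB29_OE, and ATPC1 fell by 0.50 and NdhS by 0.74 in MYB76_OE. NdhS rose by 0.94 in ATR1_OE. The bound of 1.12 does not hold for changes that were not called. LHCB4.3, not called in ATR1_OE, read 1569 and 948.9 there, against 346.9 and 679.4 in WT_ATR1_MYB51. Between wild types the differences were wider: all 3 NDH partners were higher in WT_MYB29_MYB76 than in WT_miR, with a median of 1.71, and higher in WT_ATR1_MYB51 than in WT_miR, with a median of 1.48. The 4 photosystem probe sets together read 23392 and 23394 in ATR1_like_miR and 28187 and 30692 in MYB28_like_miR, against 21608 and 23690 in WT_miR. For the sigma factors, the phage-type polymerases, RBCS, nuclear PET genes and nuclear-encoded plastid ribosomal proteins no probe set was named here.

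**Figure D5:**
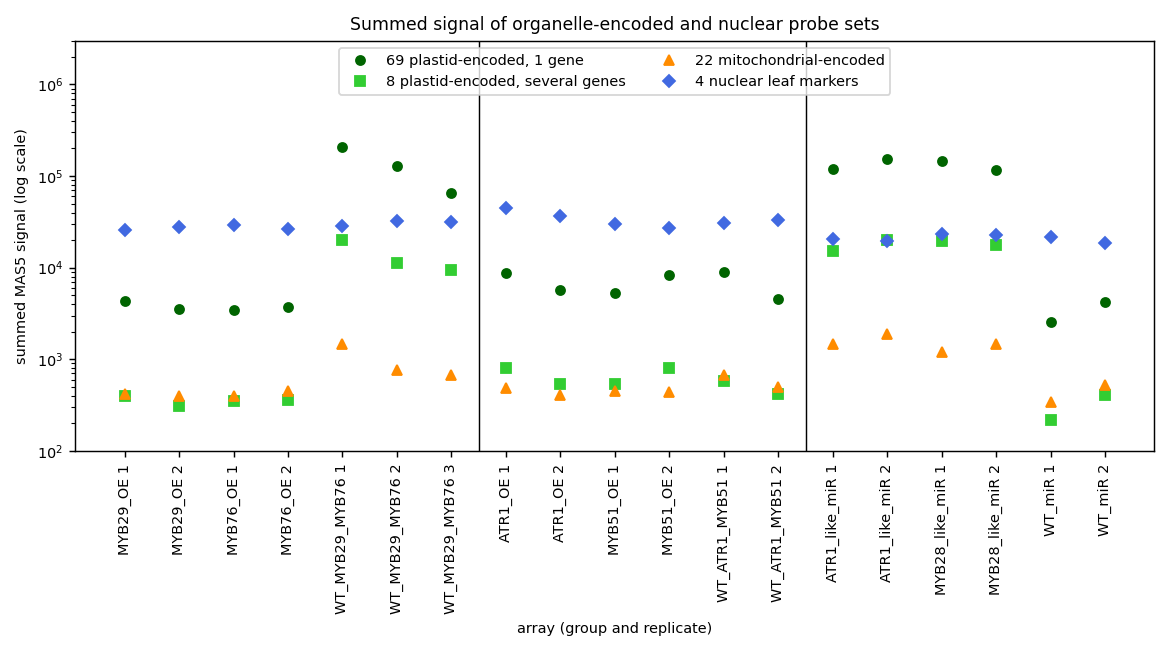
Summed MAS5 signal (log scale) per array of the 69 plastid-encoded probe sets, the 8 of several plastid genes, the 22 mitochondrial ones and 4 nuclear leaf markers; vertical lines part the experiments. The 8 plastid probe sets of several genes lie between 9491 and 20218 on the arrays where the 69 are high and between 220 and 802 elsewhere, the mitochondrial sums between 673 and 1879 and between 345 and 674, and the leaf markers stay between 18693 and 45103.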

How the data were processed

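RNA was labelled with biotin and hybridised to Affymetrix ATH1 arrays, per the labels' protocols, and the deposited table holds 1 intensity per probe set and array, made by the authors with MAS5, per the submitters' processing notes (the version is not given in the sources used here). In the values themselves the mean without the outer 2% at each end is 250 on every array. Genes were assigned from GEO's platform annotation and the RefSeq gene table of TAIR10.1: 13513 probe sets had 1 gene, 503 several, and 8794 were unnamed here. Signals were raised to the 20th percentile of the array and taken to log2. Probe sets at the 40th percentile or above on at least 2 arrays were tested after 64 control probe sets had been left out. A limma 3.58.1 model in R 4.3.3 held the 9 groups over 19 arrays, with 10 residual and 5.62 prior degrees of freedom. It used eBayes with a variance trend and Benjamini-Hochberg adjustment over all 15630 tested probe sets. The code was also run on simulated data with a common spread for all probe sets. That run cannot show how the model does on floored signals or on uneven replicates. Tables and figures were made in Python 3.11.15 with pandas 2.3.3 and matplotlib 3.10.9. Lines of 1 experiment share their wild type arrays, so their comparisons are not independent. Named genes are the members of each class with the highest and lowest mean signal, and with the largest and smallest change in a comparison, and every called member where 5 or fewer were called. The members and gene lists were chosen with earlier results of these data known. Same-numbered arrays of an experiment had deviations that correlated between -0.217 and 0.158, so the numbers were not taken to pair the arrays.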

Additional observations from a re-analysis of the deposited data

Results flagged for a closer look

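Organelle probe sets outside the 69 members carried signal in the miR lines above every WT_miR array. Of the 8 probe sets annotated to several plastid genes, 6 in ATR1_like_miR and 6 in MYB28_like_miR lay over 2-fold above each WT_miR array. Of the 22 mitochondrial probe sets, 5 did so in ATR1_like_miR and 3 in MYB28_like_miR. The share of all probe sets that did so was not counted, so the counts of both kinds are description only. No group had the 4 arrays that a search for single outlying arrays needs.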

How the results depend on the processing

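The choice of control moved the counts of called members most. For MYB29_OE and MYB76_OE limma called 0.0 members in each with all 7 wild types, with the 4 from other experiments, with WT_ATR1_MYB51 alone and with WT_miR alone (at an unadjusted p under 0.05, in that order, 5, 1, 5 and 0 in MYB29_OE and 9, 0, 10 and 0 in MYB76_OE); single-group controls were chosen after seeing the data. With WT_miR alone, the log2 change reversed in MYB29_OE for atpE (0.056), ndhI (0.33), petB (0.81), psaB (0.48) and rps3 (0.16), and in MYB76_OE for atpE (0.36), ndhI (0.37), petB (0.84) and psaB (0.42). With WT_ATR1_MYB51 alone psaB reversed (0.13 in MYB29_OE, 0.063 in MYB76_OE), and with the 4 others petB (0.38 and 0.40) and psaB (0.30 and 0.24). ATR1_OE had 1 called with quantile normalization, 1 with other wild types and 8 with WT_miR alone, and MYB51_OE 2 with WT_miR alone. ATR1_like_miR had 1 with all 7 and 3 with the others, and MYB28_like_miR 0 and 2. Between the miR lines 1 was called with only their experiment in the fit. Between WT_ATR1_MYB51 and WT_miR 4 were called with only those experiments in the fit and 1 without a floor. Leaving out 1 array gave 41 to 66 in MYB29_OE, 38 to 66 in MYB76_OE, 0 to 2 in ATR1_OE (2 without its replicate 2), 0 in MYB51_OE, 36 to 49 in ATR1_like_miR, 38 to 44 in MYB28_like_miR, 0 between lines of an experiment, 27 to 60 for WT_MYB29_MYB76 against WT_ATR1_MYB51, 44 to 65 against WT_miR, and 0 to 4 for WT_ATR1_MYB51 against WT_miR. The replicate block gave 65 in MYB29_OE, 62 in MYB76_OE, 57 in ATR1_like_miR, 54 in MYB28_like_miR and 0 in ATR1_OE and MYB51_OE, and changed no other count by over 1.5 times. In all, 140 of the recomputed counts stayed within 1.5 times, or at 0 where the main count was 0. The other 25 did not, and the cause was not tested. The share of all probe sets called in each recomputed fit is not given here, so the recomputed counts are description only. Of the recomputed class medians within arrays, 383 moved by less than their standard deviation between arrays of the group. The other 130 moved by that much or more. Signals under the floor limit what dim members can show.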
